A study of Homo sapiens with 6 samples.

Results

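The messenger RNAs of 28 protein components of the small (40S) subunit of the cytosolic ribosome were followed in 293T cells given 1 of 2 plasmids. The members were the rows of the deposited gene table whose symbol is RPSA, FAU or 1 of 26 listed RPS genes, and where a symbol had several rows the row with the highest mean count was taken. They made up 28 of 61806 genes in the table, and all 28 were found. 293T is an established human embryonic kidney line that is readily transfected. In 3 libraries the cells had received a plasmid labelled GFP-812, and in the other 3 a plasmid labelled GFP, a green fluorescent protein, both with the lipid reagent Lipo2000. Both groups were therefore transfected and both carried a GFP plasmid, and no untransfected cells were among the 6 libraries. The series title names truncated mutant NEK1 and ribosomal RNA biogenesis, and the labels leave the name GFP-812 unexplained. Whether replicates were separate cultures is not stated, so the scatter between libraries against which a p-value is set can be technical.

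The 40S subunit is built in the nucleolus from a single ribosomal RNA and its set of proteins, matured further in the cytoplasm, and then joins initiation factors to find the start codon of a messenger RNA. Its head, body and platform carry different proteins: those of the head surround the mRNA entry channel and contact transfer RNAs, and those of the platform line the exit channel. Most ribosomal protein messenger RNAs begin with a C followed by an unbroken run of pyrimidines, the 5′ terminal oligopyrimidine (TOP) sequence, through which the mTOR kinase and the RNA-binding protein LARP1 control their translation. Each protein is made from its own gene, and loss of 1 copy of several of these genes is a known cause of Diamond-Blackfan anaemia. RPS27A and FAU are made as fusions to ubiquitin and to the ubiquitin-like protein FUBI.

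The first transcribed bases were read from RefSeq for GRCh38.p14, because the TOP start is the sequence feature by which this gene family is known. Windows were found for 25 of the 28 genes, and RPS2, RPS15A and RPS20 were named only. A TOP start was taken as a C at the RefSeq start, followed without a break by C or T to a run of at least 5 bases on the gene's own strand. Each line below gives 15 bases before the start and 15 bases from the start on, 5′ to 3′, with the pyrimidine run in capitals where the start met this rule. The first 8 are TOP starts, those of 5 genes that rose in GFP-812 cells, of both fusion genes and of RPS6, and the last 4 are not, those of 3 further genes that rose and of RPS4X.
RPS25 (chr11:119018329-119018358, minus strand): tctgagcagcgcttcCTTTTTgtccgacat
RPS24 (chr10:78033848-78033877, plus strand): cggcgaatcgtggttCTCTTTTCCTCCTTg
RPS3 (chr11:75399503-75399532, plus strand): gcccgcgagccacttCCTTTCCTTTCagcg
RPS27 (chr1:153990747-153990776, plus strand): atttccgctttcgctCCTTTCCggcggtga
RPS14 (chr5:150449725-150449754, minus strand): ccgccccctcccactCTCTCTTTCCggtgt
RPS27A (chr2:55232673-55232702, plus strand): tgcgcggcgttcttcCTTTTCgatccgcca
FAU (chr11:65122120-65122149, minus strand): cgccctcgcttcttcCTCTTTCTCgactcc
RPS6 (chr9:19380222-19380251, minus strand): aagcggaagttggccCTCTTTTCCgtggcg
RPS15 (chr19:1438381-1438410, plus strand): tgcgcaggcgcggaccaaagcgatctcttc
RPS26 (chr12:56041903-56041932, plus strand): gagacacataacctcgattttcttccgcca
RPS29 (chr14:49598696-49598725, minus strand): ccccgagcgcgcagctggcagcggtggttg
RPS4X (chrX:72277234-72277263, minus strand): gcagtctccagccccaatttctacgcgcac

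Of the 25 genes with a window, 19 (76%) had a TOP start, against 7.16% of the 11659 tested genes with a window. The share was 73.7% for large-subunit ribosomal protein genes and 9.68% for those of the mitochondrial small subunit. Counted over windows, since 2 of the genes had more than 1, 19 of 28 (67.9%) had one against 4.07% of all 35116 windows. A gene was counted if any of its listed starts met the rule. RPS19 and RPS27A also had listed starts that did not, and for RPS27A only the start printed above did. RPS24 had the longest run, of 14 bases, and the runs printed for RPS25 and RPS27A were 6 bases long. RPS4X, RPS7, RPS15, RPS26, RPS28 and RPS29 had no TOP start at the listed position. A start listed a few bases from the one used in these cells would be counted as having none, so the count describes the RefSeq positions and not transcripts of 293T cells. In the 300-base windows, 250 bases before the start to 50 after it, both strands were searched for short motifs. CCGGAAG, a core bound by ETS-family factors, was in 9 of 28 windows (32.1%) against 10.3% of all windows and 15.7% of the windows of tested genes. AAGATGG, a YY1 core, was in 4 (14.3%), against 5.84% and 6.64%. Neither was particular to the members. Counted over genes, CCGGAAG was in 36% of members, 34.2% of large-subunit and 41.9% of mitochondrial small-subunit protein genes. For AAGATGG these shares were 16%, 13.2% and 32.3%. The other motifs changed direction with the background. TATAAA was in 2 of 28 (7.14%), below the 11.5% of all windows and above the 6.63% of those of tested genes. GGGCGG, bound by SP1-family factors, was in 16 (57.1%), above 45% and below 64.9%. These matches describe the letters of the windows and do not show binding.

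The 6 libraries held 14255148 to 17613814 counts, and every member had counts in every library. NEK1, the gene named in the series title, stood at 525 ± 35 FPKM (counts per kilobase of exon, scaled to the library total; SD, n = 3) in GFP-812 libraries and at 3.91 ± 0.085 FPKM (SD, n = 3) in GFP libraries (edgeR log2 fold change 7.08, adjusted p = 4.5e-70). Counts per gene do not tell plasmid RNA from that of the cells' own gene. Of 9 epithelial and kidney markers 4 reached a mean of 1 FPKM (KRT8, KRT18, LHX1 and SIX2), while EPCAM was at 0.978, CDH1 at 0.66 and PAX8 at 0.022 FPKM. Their summed level was 37.74 to 41.63 FPKM in GFP-812 and 37.4 to 38.18 FPKM in GFP libraries. Of 12 markers of other cell types, PTPRC, INS and HBB were at 0 in every library and COL1A1 was at a mean of 1.59 FPKM, and the list had sums of 3.68 to 3.87 and 2.4 to 3.62 FPKM. In RNA from whole cultures, fewer cells of a type and less RNA per cell cannot be told apart.

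The deposited levels of the members ranged from 13.2 to 907.9 FPKM (mean of 6 libraries). RPS3A, which lies on the platform, was highest, at 929, 949.6 and 933 FPKM in the 3 GFP-812 libraries and at 874, 825 and 936 FPKM in the 3 GFP libraries, each in order of replicate number. RPS4X followed at a mean of 844, RPS2, at the mRNA entry channel, at 817, RPS12 at 766, RPS18 at 612, RPS6, the target of the S6 kinases, at 412 and RPS25 at 374 FPKM. Between 300 and 100 FPKM came RPS27 (287), RPS27A (279), RPS15 (223), RPSA (208), RPS13 (199), RPS3 (196), RPS14 (187), RPS23 of the decoding centre (179), RPS24 (158), RPS7 (144), RPS16 (127), RPS26 (118), RPS19, the gene most often mutated in Diamond-Blackfan anaemia (105), and RPS21 (103). RPS15A (82.5), RPS9 (78.3), FAU (70.4), RPS20 (67.2) and RPS10 (47.2 FPKM) were lower still. RPS28 was at 19.8 FPKM. RPS29, a small zinc-binding protein of the head, was lowest, at 14.8, 13 and 14.2 FPKM in the GFP-812 libraries and at 11.5, 12.4 and 13.5 FPKM in the GFP libraries.

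This order followed the gene lengths in the table as well as the RNA. The proteins are present once per subunit, yet the deposited exonic sizes ran from 639 bases (RPS12) to 9840 bases (RPS29), because they join the exons of every annotated transcript. For each gene the shortest basic transcript in GENCODE 29 with the coding length of a principal transcript was taken, which for RPS29 has 296 bases. The deposited size of RPS29 was 33.2 times as long, against 12.7 times for RPS15A, 12.3 times for RPS24, 10.8 times for RPS20 and 1.01 times for RPS12. Scaled per kilobase of that transcript and to the library total, RPS29 moved from the 28th to the 22nd place (440 counts), RPS24 from the 16th to the 3rd (1947) and RPS12 from the 4th to the 15th (776), while RPS3A stayed first (2216). RPS28 was last on this scale at 31.6. The transcripts taken for RPS28 and RPS23 were long, at 1326 and 3437 bases, and their places depend on that choice. Which transcripts the cells used was not measured, so levels are compared between genes only as orders on these scales. Fold changes between groups do not use the length.

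**Figure D1:**
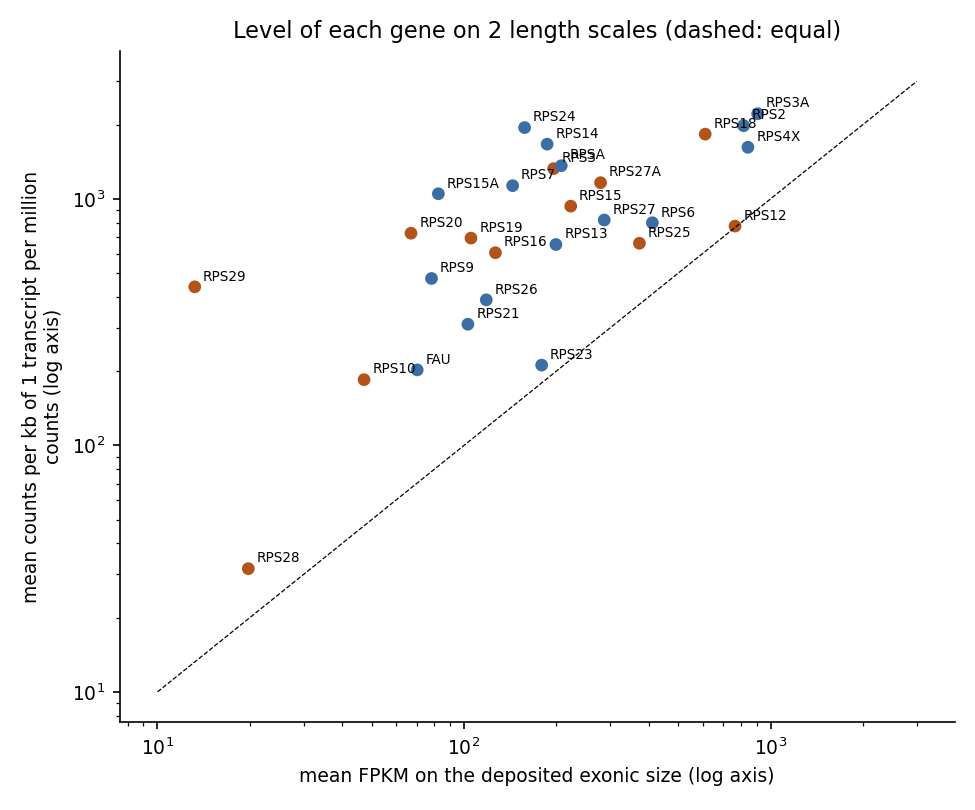
Mean level of each of the 28 genes over 6 libraries on the deposited exonic size (x axis, FPKM, log scale) and on 1 transcript (y axis, counts per kilobase scaled to the library total, log scale), with genes of the head in orange and of the body or platform in blue. RPS12 and RPS23 lie close to the dashed line of equal values, and RPS29 lies far above it, at 13.2 on the x axis and 440 on the y axis.

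Ribosomal protein genes have many processed copies in the genome whose sequence is close to that of the parent. The table held 447 rows of pseudogenes named after the members, and 211 of them had counts. For 19 members these copies took under 1% of the counts of gene and copies together. RPS28 had less than its copies, which took 57.1%, led by RPS28P7 with a mean of 892 counts, and the copies of RPS2 took 35.7%, led by RPS2P5 with 14152 counts. The copies of RPS7 took 15.8%, those of RPSA 5.61% and those of RPS27A 3.39%, and the values of these 5 genes are uncertain for that reason. The shares do not measure how far. Reads that match a gene and a copy equally well were not followed for any member. Adding the copies' counts to the members left the number of risen members at 8. In all, 20 members overlapped some other gene row, 13 of them on their own strand, and 7 were hosts of 14 small nucleolar RNA rows. RPS10 shared its strand with the read-through gene RPS10-NUDT3 (mean of 49.7 counts), and FAU with SYVN1 (355.7, against 1737 for FAU). The opposite-strand rows with the most counts were SH3D19 over RPS3A (926 against 33038) and PIN4 over RPS4X (816 against 39459). Next were LRR1 over RPS29 (570.8 against 2076) and CENATAC over RPS25 (487.5 against 8802). Whether the counting used strand is not given in the sources used here.

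All 28 members had a higher fitted level in GFP-812 cells, by small amounts, and 8 of them rose. The fit was edgeR's quasi-likelihood test over 16834 genes with Benjamini-Hochberg adjustment and a threshold of 0.05, which all 28 members entered. It takes a gene's spread over both groups together and draws it towards that of other genes. Its standard errors and p-values therefore do not rest on a member's own scatter alone, which was larger in GFP than in GFP-812 libraries (below). RPS3, RPS14, RPS15, RPS24, RPS25, RPS26, RPS27 and RPS29 rose, 0 fell and 20 did not pass. Across all genes tested 1.18% rose and 2.67% fell. The fold changes ran from 1.041 (RPS2) to 1.137 (RPS28) with a median of 1.088, which is a median log2 fold change of 0.12 against 0.0069 over all genes tested. Log2 fold changes above 0 were found for 28 of 28 members and for 51.8% of all genes. At an unadjusted p under 0.05, 23 members were higher, against 7.24% of all genes higher and 16.1% in either direction. The median standard error of a member was 0.0402, and the SD of the log2 fold changes between members was 0.0345. The 95% interval held 0 for 5 members (RPS2, RPS7, RPS12, RPS19 and RPS21).

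**Figure D2:**
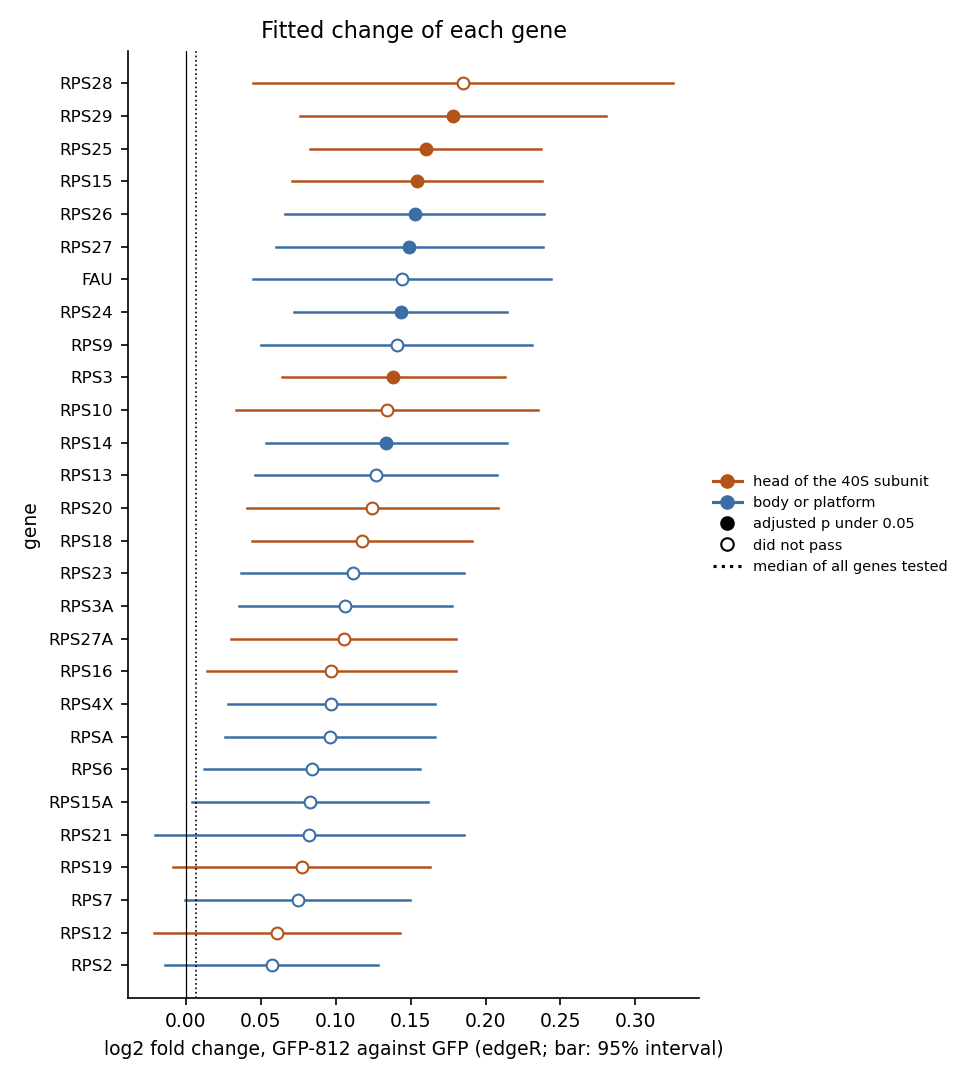
Log2 fold change of each gene in GFP-812 against GFP cells from edgeR (x axis) with its 95% interval, ordered by size, for 12 genes of the head (orange) and 16 of the body or platform (blue). Filled points are the 8 risen genes, all points lie to the right of 0, and the intervals of neighbouring genes overlap widely.

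Of the 12 proteins of the head, 4 rose (RPS3, RPS15, RPS25 and RPS29) and 8 did not pass, at a median log2 fold change of 0.13. RPS25, known for its use by viral internal ribosome entry sites, was at 587, 584 and 581 CPM (counts scaled to library totals by edgeR's TMM factors) in the 3 GFP-812 libraries, in order of replicate number, and at 511, 498 and 558 CPM in the GFP libraries. Every GFP-812 library lay above every GFP library, and GFP replicate 3 was nearest. The means were 584 ± 3.2 and 522 ± 31.6 (SD, n = 3 each), which edgeR fitted as 0.16 on the log2 scale (SE 0.0385, adjusted p = 0.0073). RPS3, which lines the mRNA entry channel, was at 1193, 1219 and 1209 against 1063, 1043 and 1183 CPM, again without overlap (log2 fold change 0.14, SE 0.0371, edgeR adjusted p = 0.0191). RPS15, a head protein next to the decoding site, was at 506, 505 and 499 against 447, 415 and 495, where the gap to GFP replicate 3 was narrow (0.15, SE 0.0417, edgeR adjusted p = 0.0205). RPS29 was at 146, 129 and 141 against 114, 122 and 132, with GFP-812 replicate 2 below GFP replicate 3 (0.18, SE 0.0511, edgeR adjusted p = 0.0324).

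The calls in the head depended on single libraries. RPS25 did not pass without GFP-812 replicate 2 (edgeR adjusted p = 0.0755), GFP replicate 1 (0.0724) or GFP replicate 2 (0.0572). RPS3 did not pass when GFP-812 replicate 2 (0.163) or 3 (0.0936), or GFP replicate 1 (0.171) or 2 (0.115), was left out. RPS15 passed with all 6 libraries and without GFP replicate 3, and gave 0.0711 to 0.212 without each of the others. RPS29 still passed when GFP-812 replicate 2 (0.0295) or GFP replicate 3 was left out, and gave 0.0834 to 0.308 without each of the others. Among the 8 head genes that did not pass, RPS18, whose protein contacts transfer RNAs, was nearest to the threshold (log2 fold change 0.12, edgeR adjusted p = 0.0546). The others were RPS10 (0.13) and RPS20 (0.12), both ubiquitylated by ZNF598 when ribosomes collide, RPS27A (0.11), RPS16 (0.097), RPS19 (0.077), RPS12 (0.061) and RPS28.

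Of the 16 proteins of the body and platform, 4 rose (RPS14, RPS24, RPS26 and RPS27) and 12 did not pass, at a median log2 fold change of 0.11. RPS24, another gene of Diamond-Blackfan anaemia, was at 1296, 1312 and 1288 CPM in the GFP-812 libraries and at 1166, 1122 and 1239 CPM in the GFP libraries. The groups did not overlap, and the log2 fold change was 0.14 (SE 0.0354, edgeR adjusted p = 0.0097). RPS26, at the mRNA exit channel, was at 256, 259.7 and 253 against 232, 214 and 246, without overlap (0.15, SE 0.043, edgeR adjusted p = 0.0291). For the zinc-binding protein RPS27 the values were 307, 319 and 306 against 269, 262 and 310.3, so that GFP replicate 3 lay inside the GFP-812 range (0.15, SE 0.0443, edgeR adjusted p = 0.0416). RPS14, the platform protein whose loss is linked to the 5q- syndrome, was at 986, 1014 and 985 against 875, 843 and 1003, also with GFP replicate 3 inside that range (0.13, SE 0.0401, edgeR adjusted p = 0.0442).

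RPS24 did not pass without GFP-812 replicate 2 (edgeR adjusted p = 0.117), GFP replicate 1 (0.0585) or GFP replicate 2 (0.061). RPS26, RPS27 and RPS14 passed with all 6 libraries and without GFP replicate 3 alone, and without each of the other libraries their adjusted p was 0.0854 to 0.222 for RPS26, 0.0804 to 0.269 for RPS27 and 0.0875 to 0.289 for RPS14. The 12 genes that did not pass were led by RPS9 (log2 fold change 0.14) and RPS13 (0.13), both early-assembling proteins, with edgeR adjusted p-values of 0.0641 and 0.0607. RPS3A, the most abundant member, differed by 0.11 on the log2 scale (SE 0.0354, edgeR adjusted p = 0.0783). It stood at 2136, 2183 and 2136 CPM against 1999, 1869 and 2128, with GFP replicate 3 just under the GFP-812 libraries. The remaining values were 0.14 for FAU, 0.11 for RPS23, 0.097 for RPS4X, 0.096 for RPSA, 0.084 for RPS6, 0.083 for RPS15A, 0.082 for RPS21, 0.075 for RPS7 and 0.057 for RPS2.

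Head and body had like counts, 4 of 12 and 4 of 16 risen, and all genes of each had a log2 fold change above 0. Of 13 proteins of families found in all domains of life 4 rose (median 0.12), and of the 15 from families absent from bacteria 4 rose (median 0.11). Without GFP replicate 3, 11 head and 15 body genes rose, and 13 in each of the protein families, against 2.94% of all genes. Without GFP replicates 1 or 2, 0 rose in each of these 4 groups, against 0.449% and 0.63% of all genes. The differences between these groups were not tested.

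The fusion genes behaved alike in direction but neither passed. RPS27A was at 854, 847 and 857 CPM in the GFP-812 libraries and at 798, 739 and 840.0 CPM in the GFP libraries, without overlap, which edgeR fitted as 0.11 on the log2 scale (SE 0.0375, adjusted p = 0.107). FAU was at 116, 118 and 111 against 103, 99.9 and 108, also without overlap, at 0.14 (SE 0.0496, edgeR adjusted p = 0.0913). RPS2 and RPS12 had the smallest changes. RPS2, a protein of the entry channel that PRMT3 methylates, was at 1976, 2009 and 1998 against 1874, 1821 and 2056, with GFP replicate 3 the highest of the 6 libraries (0.057, 95% interval -0.014 to 0.13, edgeR adjusted p = 0.44). RPS12 also had GFP replicate 3 as the highest of the 6 libraries, at 509, 489.6 and 504 against 463, 452 and 525 (0.061, 95% interval -0.021 to 0.14, edgeR adjusted p = 0.483). RPS28, singled out after its values were seen because its log2 fold change of 0.19 was the largest, did not pass (SE 0.07, edgeR adjusted p = 0.136). Its counts were low and its pseudogenes hold more counts than the gene itself. With their counts added its log2 fold change was 0.098, and without GFP-812 replicate 3 it was 0.12.

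In the levels of the members, the libraries did not split cleanly by plasmid. For these genes GFP replicate 3 lay closer to the GFP-812 libraries than to the other GFP libraries. On log2 CPM, centred on each gene's mean over the 6 libraries, the median member was at 0.056, 0.055 and 0.057 in the GFP-812 libraries, at -0.078 in the first GFP replicate, at -0.14 in the second and at 0.042 in the third. GFP replicate 3 was the highest GFP library for 28 of 28 members, against 33.4% of all genes. GFP replicate 2 was the lowest of all 6 libraries for 26 members, against 19.2%, and GFP replicate 1 was the lowest for RPS28 and RPS29. GFP replicates 1 and 2 both lay below every GFP-812 library for 28 of 28 members, against 17.4% of all genes. Within GFP-812 the 3 libraries were close, with a median coefficient of variation of 1.27% against 6.54% within GFP, and the GFP value was the larger for 27 of 28 members.

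Every GFP-812 library lay above every GFP library for 15 of the 28 members, against 9.75% of all genes, and this held for 5 of the 8 risen members. On the deposited FPKM, without the TMM factors, it held for 8 members. Outside the ribosomal proteins it held on TMM-scaled CPM for 10.4% of 5324 genes at or above the lowest member in level. For the 178 at or above the median member the share was 25.3%. On the same scale GFP replicate 3 lay below the GFP-812 range for the 15 members without overlap. It lay within that range for 8 and above it for 5 (RPS2, RPS12, RPS16, RPS19 and RPS21). What set GFP replicate 3 apart from the other GFP libraries was not tested. Its total of 16061389 counts lay within 1% of the other GFP totals, and mitochondrially encoded genes took 3.85% to 4.03% of counts over all 6 libraries.

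**Figure D3:**
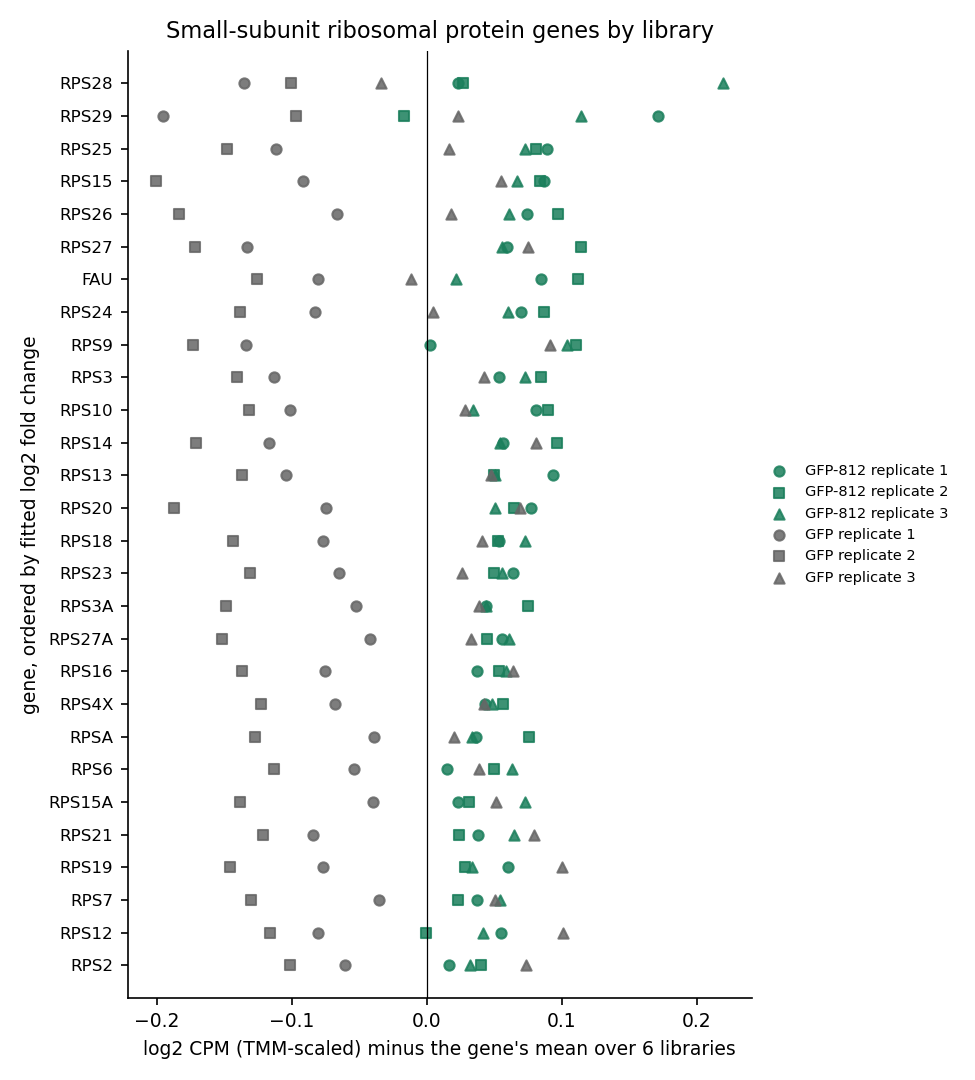
Level of each gene in each library as TMM-scaled log2 CPM minus the gene's mean over the 6 libraries (x axis), with GFP-812 in green and GFP in grey and symbols for replicates 1 (circle), 2 (square) and 3 (triangle). The grey circles and squares lie left of all green points in each of the 28 rows, and the grey triangles of GFP replicate 3 lie among or beside the green points.

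Summed over the 28 genes, the members took 2.16%, 2.18% and 2.18% of all counts in the GFP-812 libraries and 2%, 1.93% and 2.18% in the GFP libraries. The means were 2.17% ± 0.0113 and 2.03% ± 0.13 (SD, n = 3 each), a difference of 0.137 percentage points, and the share of GFP replicate 3 lay inside the range of the GFP-812 libraries. Exact Clopper-Pearson 95% intervals, which cover counting error alone, ran from 2.15% to 2.17% for GFP-812 replicate 1 and from 1.92% to 1.93% for GFP replicate 2, which is narrow beside the difference between the groups. The difference was 0.0838 points without GFP replicate 2 and 0.209 points without GFP replicate 3, and 0.119 to 0.144 points without each of the others. The large-subunit proteins traced the same outline, at 3.9%, 3.94% and 3.94% against 3.59%, 3.48% and 3.93%. The messenger RNAs of the mitochondrial small subunit, whose proteins are made on cytosolic ribosomes and imported, stayed between 0.192% and 0.199% in all 6.

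**Figure D4:**
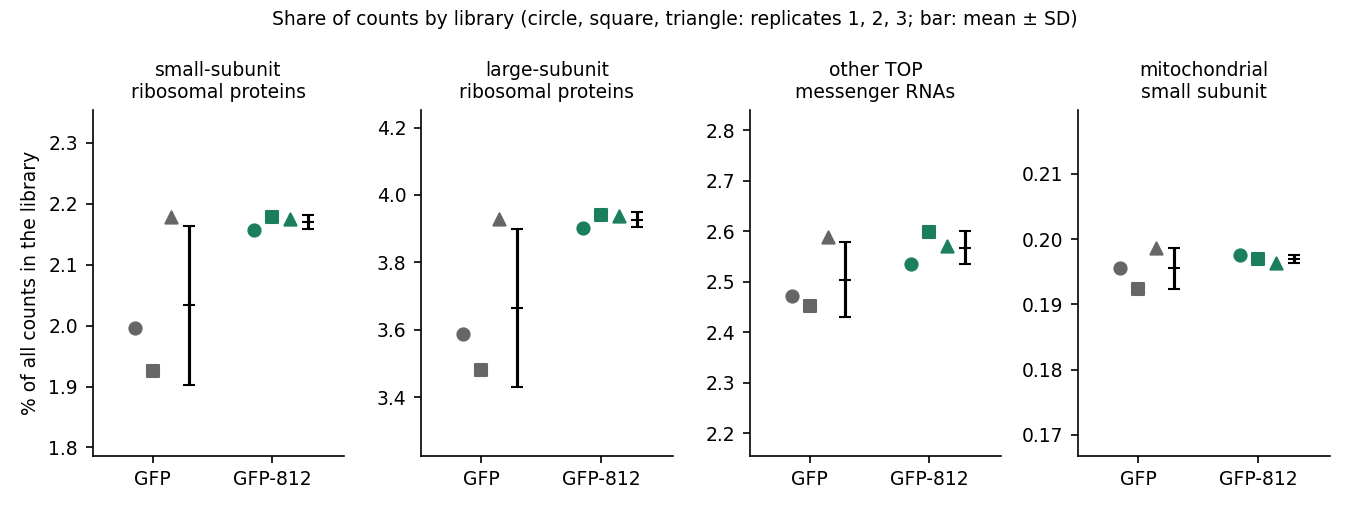
Share of all counts in each library (y axes, percent, each with its own range that does not start at 0) for the 28 genes, the large-subunit proteins, other TOP messenger RNAs and the mitochondrial small-subunit proteins, with points for libraries and bars for the mean ± SD of 3 libraries. In the first panel GFP replicate 3, at 2.18%, stands at the height of the GFP-812 libraries, and GFP replicates 1 and 2 lie below 2.0%.

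The makeup of the set moved little. The 5 members with the most counts (RPS4X, RPS3A, RPS2, RPSA and RPS24) took 44% to 44.7% of the members' counts in each library. A member's share within the set changed by -0.05 (RPS2) to 0.073 (RPS28) on the log2 scale, with a median size of 0.028 against a median SD of 0.02 between libraries of a group. Across the 28 members the log2 fold change went down with the mean log2 level (Pearson's r = -0.48, Spearman's rho = -0.4). It had no such relation to exonic size (0.1 and -0.09) or to the share taken by pseudogenes (0.07 and -0.07). These are descriptions over 28 genes of the same 6 libraries.

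The number of risen members depended on single libraries and on the method. Without GFP-812 replicate 1, 4 members rose (RPS3, RPS9, RPS24 and RPS25; 0.789% of all genes), without replicate 2 only RPS29 (0.359%), and without replicate 3 RPS24 and RPS25 (0.487%). Without GFP replicate 1, 0 members rose in edgeR (0.449% of all genes), with 20 at an unadjusted p under 0.05. Without GFP replicate 2, again 0 rose (0.63%), with 13 at an unadjusted p under 0.05 and a median log2 fold change of 0.075. Without GFP replicate 3, 26 of 28 rose, all but RPS21 and RPS28, at a median of 0.17, against 2.94% of all genes. No member fell in any of these fits, and 28 of 28 stayed above 0 in each.

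Other methods on all 6 libraries called between 0 and 15 members. The share of all genes that rose is given for each over the genes which that method kept, so shares on unlike numbers of genes are not comparable. DESeq2 called 7 (1.54% of 7752 genes with an adjusted p), 5 of them among the 8. limma-voom called 15 (1.36% of 16834), all 8 among them. Upper-quartile scaling gave 15 (1.66% of 16834), and a minimum mean of 5 FPKM gave 15 (3.76% of 7015). An offset that removed each library's trend with exonic size gave 5, RPS3, RPS14, RPS24, RPS25 and RPS29 (1.05% of 16834). limma on log2(FPKM + 1) called 0 members, and 0.0231% of the 12984 genes it tested rose. There 9 members had an unadjusted p under 0.05, and the median log2 difference was 0.11.

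**Figure D5:**
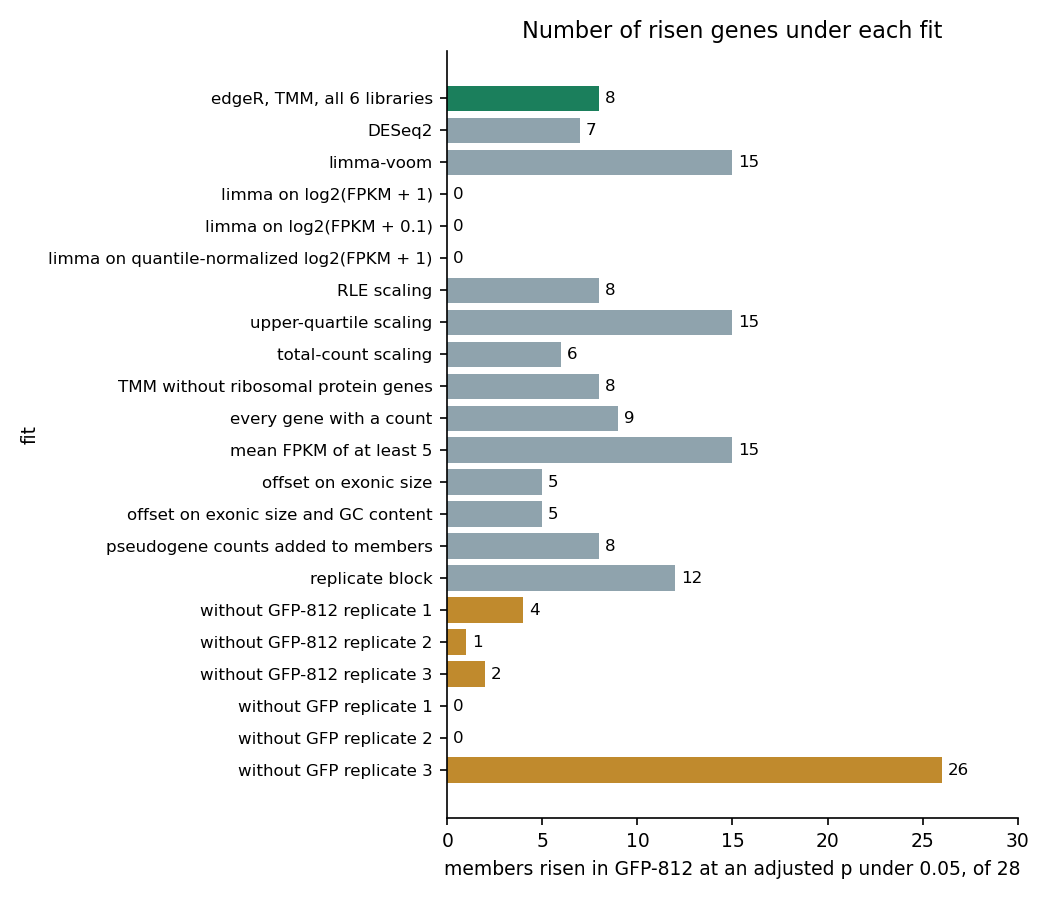
Number of the 28 genes that rose in GFP-812 cells at an adjusted p under 0.05 (x axis) under each fit (y axis), with the edgeR fit of all 6 libraries in green, other methods in grey and fits that leave out 1 library in brown. The fit of all libraries gave 8, the fits without GFP replicates 1 or 2 gave 0, and the fit without GFP replicate 3 gave 26.

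Genes of like level outside the ribosomal proteins, and all tested genes grouped by size with the members included, had lower medians than the members. Among 178 genes at or above the median member in level and outside the ribosomal proteins, 6.74% rose, at a median log2 fold change of 0.0072. Among 5324 genes at or above the lowest member 1.84% rose, at a median of -0.017. By exonic size the median went from 0.047 in the shortest of 4 equal groups of genes, which held 15 members, through 0.014 (5 members) and -0.006 (5 members) to -0.017 in the longest (3 members).

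Members with and without a TOP start both included risen genes, and the difference between them was not tested. Of the 19 members with one, 5 rose at a median log2 fold change of 0.12, and of the 6 with another start 3 rose at a median of 0.15. Leaving out GFP-812 replicate 2 or 3 made the first count 0 or 2 and the second 1 or 0, and leaving out GFP-812 replicate 1 made the second 0. Leaving out GFP replicate 1 or 2 made both counts 0, and leaving out GFP replicate 3 made them 18 and 5. Of all 835 tested genes with a TOP start 32 rose (3.83%, median 0.023), and of the 788 outside the ribosomal proteins 15 rose (1.9%, median 0.012), against 1.07% of the 10824 with another start. On a list of 20 TOP messenger RNAs that encode other parts of the translation machinery, such as elongation factors, 0 rose and 0 fell in edgeR, at a median of 0.029. Without GFP replicate 3, 5 of these 20 rose and 1 fell, where 507 of all 17259 genes tested rose and 810 fell. Their share was 2.53%, 2.6% and 2.57% in GFP-812 libraries and 2.47%, 2.45% and 2.59% in GFP libraries, so GFP replicate 3 was again the highest of its group.

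The messenger RNAs of the large (60S) subunit's proteins rose too, for 16 genes. Of 47 genes tested, 31 did not pass and 0 fell, with all 47 above 0, a median log2 fold change of 0.11 and GFP replicate 3 the highest GFP library for 47 of 47. RPL23 was at 151 ± 1.89 against 136 ± 7 FPKM (SD over 3 libraries in each group; log2 fold change 0.16, edgeR adjusted p = 0.0041) and RPL7 at 589 ± 6.99 against 533 ± 31.5 FPKM (SD, n = 3 each; 0.16, edgeR adjusted p = 0.0042). Both lost the call without GFP-812 replicate 2 (0.0737 and 0.0783). With 1 library left out, the number of risen large-subunit genes was 8, 2 and 7 for the GFP-812 libraries and 5, 3 and 45 for the GFP libraries, in order of replicate number. In the same fits 0.789%, 0.359% and 0.487%, then 0.449%, 0.63% and 2.94% of all genes tested rose. With all libraries it was 1.18%, against 34% of the large-subunit genes. Of 32 mitochondrial small-subunit proteins 0 rose and 0 fell in edgeR, at a median of 0.013, and the same held without each library in turn.

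Among proteins that build, modify or bind the 40S subunit 0 rose and a few fell, where 2.67% of all genes tested and 6.61% of those at or above the lowest member in level fell. Of 20 factors of 40S maturation 0 rose, 3 fell and 17 did not pass, at a median log2 fold change of -0.066. RIOK3, an atypical kinase of pre-40S particles, was at 18.9, 19.2 and 19.5 FPKM in GFP-812 libraries and at 24.2, 23.3 and 23.4 FPKM in GFP libraries. It fell by 0.29 on the log2 scale (SE 0.0494, edgeR adjusted p = 0.000114) and passed without each library in turn. RRP12, a factor of pre-40S export, fell from 6.87 ± 0.37 to 5.59 ± 0.391 FPKM (SD over 3 libraries in each group; log2 fold change -0.29, edgeR adjusted p = 0.0041), a call that was lost without GFP-812 replicate 3 (0.105) or GFP replicate 1 (0.068). With 1 library left out, the number of fallen factors was 3, 2 and 1 for the GFP-812 libraries and 1, 4 and 4 for the GFP libraries, in order of replicate number. In the same fits 339, 147 and 208, then 185, 305 and 810 of all genes tested fell. With all 6 libraries it was 449 of 16834, and 17239 to 17358 genes were tested in the fits without 1 library.

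Of 14 enzymes and chaperones that act on the members' proteins 2 fell, 0 rose and 12 did not pass. RNF10, a ubiquitin ligase of stalled 40S subunits, was at 18.8 ± 0.26 against 21.5 ± 0.603 FPKM (SD over 3 libraries in each group; log2 fold change -0.18, edgeR adjusted p = 0.0179). RPS6KB1, the S6 kinase that phosphorylates RPS6, was at 16.3 ± 0.211 against 18.5 ± 1.02 FPKM (SD, n = 3 each; -0.17, edgeR adjusted p = 0.0306). RNF10 lost its call when GFP-812 replicate 2 or 3, or GFP replicate 1, was left out (0.11 to 0.167), and RPS6KB1 when any library other than GFP replicate 3 was (0.0688 to 0.206). With 1 library left out, the number of fallen members of this list was 1, 0 and 0 for the GFP-812 libraries and 0, 1 and 3 for the GFP libraries, in order of replicate number. The number over all genes tested also varied, from 147 without GFP-812 replicate 2 to 810 without GFP replicate 3.

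Of 23 initiation factors that bind the 40S subunit 1 fell, 0 rose and 22 did not pass, at a median log2 fold change of -0.0014. EIF5, which stimulates GTP hydrolysis at the start codon, was at 67 ± 0.857 against 74.6 ± 1.5 FPKM (SD over 3 libraries in each group; log2 fold change -0.14, edgeR adjusted p = 0.0132), and its adjusted p was 0.0726 to 0.146 when GFP-812 replicate 2 or 3, or GFP replicate 1, was left out. Without GFP replicate 3, 4 of these factors fell and 1 rose, where 810 of all 17259 genes tested fell and 507 rose. Among the markers of other cell types ACTA2 rose, from 0.123 ± 0.0404 to 0.383 ± 0.0586 FPKM (SD over 3 libraries in each group; log2 fold change 1.61, edgeR adjusted p = 0.0423), a call lost when any library other than GFP replicate 3 was left out (0.137 to 0.208). The 7 tested epithelial and kidney markers held 0 past the threshold in edgeR. The part of any marker in the members' change was not tested.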

How the data were processed

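Poly(A)-selected RNA of 6 libraries was sequenced. The authors deposited 1 table with raw counts and FPKM for 61806 genes on hg38, per the file headers. The submitters' processing notes name HISAT2 2.2.1, HTSeq 0.6.1, cutadapt 1.9.1 and FastQC 0.10.1. The strand setting and annotation release were not given in these sources. The deposited FPKM equal the counts over exonic size and library total (100% of values within 0.0051), so they carry no further scaling. Total counts were 14255148, 15617457 and 17613814 (GFP-812 replicates 1 to 3) and 16144531, 16089894 and 16061389 (GFP replicates 1 to 3).

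The counts were tested with edgeR 4.0.16 in R 4.3.3 (filterByExpr, TMM, quasi-likelihood, group as the single term, 2-sided, Benjamini-Hochberg over 16834 genes, threshold 0.05). Library values of members are TMM-scaled CPM. Alternatives were DESeq2 1.42.0, limma 3.58.1 (voom, log2 FPKM with pseudocounts 1 and 0.1, quantile normalization), other scalings and filters, offsets on exonic size, pseudogene counts added, a replicate block, and each library left out in turn. The offset on size and GC content (a spline with 4 degrees of freedom, GC from GENCODE 29 transcripts) was added after the data were seen. The edgeR script was tested on simulated counts.

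The members and lists were chosen with earlier results of these data known. Library values are given for members past the threshold (at most 8), the highest and lowest in FPKM, the 2 smallest fold changes and both fusion genes, and from each list the 2 genes with the smallest p if past the threshold. The lists were large-subunit proteins, mitochondrial small-subunit proteins, other TOP messenger RNAs, 40S maturation factors, enzymes and chaperones of the members, 40S-binding initiation factors and 2 marker lists, of which 1 marker is not reported here. Start sequences and motif counts came from RefSeq promoters of GRCh38.p14.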

Additional observations from a re-analysis of the deposited data

How the results depend on the processing

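No member fell in any fit. Against 8 risen members in the edgeR fit of all libraries, limma-voom called 15, upper-quartile scaling 15, a minimum mean of 5 FPKM 15, the offset on exonic size 5 and the added offset on size and GC content 5. The cause was not tested. limma called 0 on log2(FPKM + 1), 0 on log2(FPKM + 0.1) and 0 after quantile normalization (9, 10 and 9 at an unadjusted p under 0.05), and the median log2 fold change after quantile normalization was 0.046. That method reversed RPS6 (-0.047, adjusted p = 0.284), and the offset on size and GC content reversed RPS12 (-0.0021, adjusted p = 0.988). Counts of risen members without 1 library ranged from 0 to 26, and medians from 0.075 to 0.17. Over the single members, the list genes named above and NEK1, 609 values kept their direction and side of the threshold. A further 113 lost and 48 gained a call, and 2 reversed. Genes that passed in neither fit are among the 609. Each of the 8 risen members lost its call in 6 (RPS24 and RPS25) to 12 (RPS27) of 21 alternatives.

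Risen genes made up 30.6% of all called genes, 45.2% under upper-quartile scaling, 41.2% at a mean of at least 5 FPKM and 21.9% under total-count scaling, where 6 members rose. The replicate number as a block gave 12 risen members against 8 (1.58% of all genes tested rose, against 1.18%). Over all genes tested, the deviations of same-numbered libraries from their group means had correlations of 0.028, -0.01 and 0.005. Such a value over all genes cannot exclude a pairing that acts on some of them, and the labels do not state one. Between libraries of a group, the chi-square of counts over its degrees of freedom was 2.13 to 2.34 in GFP-812 and 3.14 to 4.03 in GFP. These values cover 16507 to 16874 genes of all levels and do not describe the members alone. The members had a median coefficient of variation of 1.27% in GFP-812 and 6.54% in GFP. How much of the spread was counting error was not tested.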
